A study of Mus musculus and synthetic construct with 30 samples.

Results

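The 10 genes described here are *Dppa2*, *Dppa3*, *Dppa4*, *Dppa5a*, *Tdgf1*, *Gbx2*, *Rex2*, *Sall4*, *Lin28a* and *Utf1*, all known as markers of pluripotent cells. They were taken by symbol from the 26759 genes quantified in each RNA-seq library, and each symbol matched 1 gene. Their levels were compared between WT and *Peril* KO mouse embryonic stem cells (mESC), and their residual levels were measured in E14.5 kidney and in the E14.5 ganglionic eminence and olfactory bulb (GE/OB). *Peril* is a lincRNA locus whose gene body was replaced by a *LacZ* reporter in the KO. The 16 libraries were 3 WT and 3 KO mESC wells, 3 WT and 3 KO kidneys from litter 43, and 2 WT and 2 KO GE/OB samples from litter 46, on a mixed C57BL/6J and 129S6 background. The mESC were male, grew in 2i medium on feeder fibroblasts, and came from 1 clone per genotype. Clone and genotype therefore cannot be told apart. The p-values rest on an estimate of the spread within groups that mESC wells and embryos share over all 16 libraries. They do not cover the spread between clones. The authors' sample sheet also gives the KO wells a higher passage than the WT wells, and passage and genotype cannot be told apart. The kidneys were of both sexes (WT 2 males and 1 female, KO 1 male and 2 females), whereas all GE/OB WT samples were male and all KO samples female. In GE/OB the effect of sex cannot be told apart from that of genotype.

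As background, mouse stem cells in 2i medium are held in a naive state by inhibitors of MEK and GSK3, and many genes that mark this state are shut off soon after implantation. *Dppa2* and *Dppa4* encode partner proteins with a SAP domain that bind chromatin, and *Dppa3* (Stella) encodes a maternal factor that limits DNA methylation. *Dppa5a* encodes a KH domain protein, *Tdgf1* (Cripto) a co-receptor for Nodal, and *Lin28a* an RNA-binding protein that blocks maturation of the let-7 microRNAs. *Gbx2*, *Sall4*, *Rex2* and *Utf1* encode nuclear factors: a homeobox factor, a zinc finger factor that recruits the NuRD complex, a KRAB zinc finger protein and a chromatin-associated protein.

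Total expected counts ranged from 17544707 to 45924887 per library. *Peril* itself had 8.13 to 17.5 expected counts in the WT wells and 3 to 8.29 in the KO wells, and it was listed at 0 in all kidney and GE/OB libraries, where it could not check the labels. Marker genes fitted the labelled tissues. 12 kidney markers summed to 408 to 503 TPM in kidney and to at most 6.32 TPM in mESC, and 12 GE/OB markers summed to 1473 to 1597 TPM in GE/OB and to at most 5.79 TPM in mESC. In mESC, 22 markers of feeder fibroblasts summed to 680 to 701 TPM in WT and 668 to 747 TPM in KO wells, nearly all of it from *Fn1* and *Vim*, which other cells also express. Of these 22, *Thbs1*, *Col3a1* and *Lox* were lower in KO, each below 1 TPM in both groups, where 4.59% of all tested genes were lower. *S100a4* and *Twist2* were at 0 counts in every well. The part of feeder cells in the results below was not tested.

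All 10 genes were read in every mESC well, at widely different levels. *Dppa5a* stood first, with a mean of 5449 TPM in WT (SD 162, n = 3), and it ranked between places 11 and 13 among all genes in the 6 wells. *Tdgf1* followed at 736 TPM (SD 8.69, n = 3), and ranked between places 175 and 219. *Lin28a* (182 TPM), *Utf1* (166 TPM), *Rex2* (133 TPM) and *Sall4* (131 TPM) formed a middle group. *Dppa4* (72.4 TPM), *Dppa3* (44.7 TPM) and *Dppa2* (44.6 TPM) came next, and *Gbx2* was far below at 1.73 TPM. The ranges of neighbours in this order did not overlap except for *Rex2* with *Sall4* and *Dppa3* with *Dppa2*. In the KO wells the order was different: *Dppa3* stood above *Dppa4* and *Sall4* above *Rex2*, in both cases without overlap, and *Utf1* and *Lin28a* overlapped. The 10 genes together summed to 6800 to 7112 TPM in WT and 6438 to 6586 TPM in KO, and *Dppa5a* alone made up 77.8 to 80.2% of the sum.

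**Figure D1:**
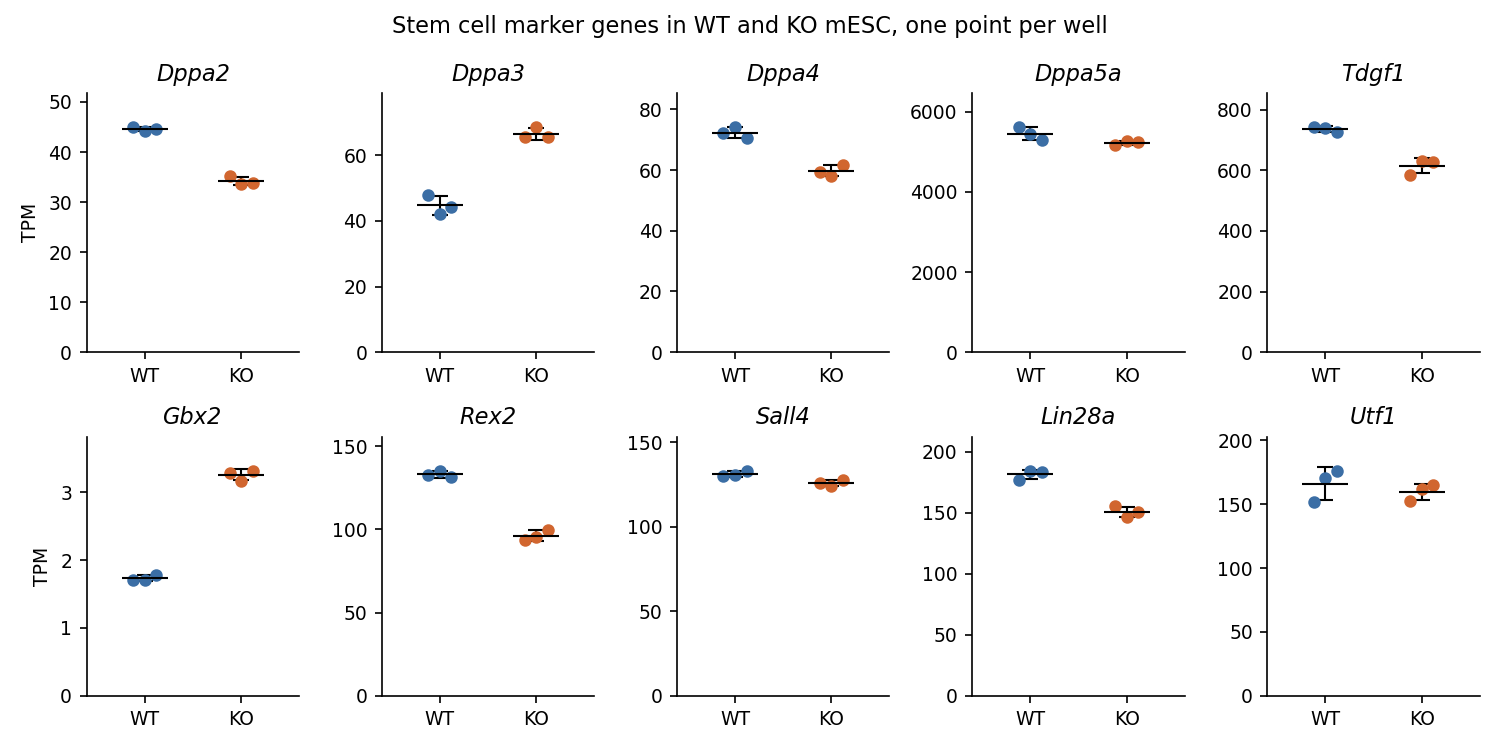
TPM of each gene (vertical axes, starting at 0) in the 3 WT (blue) and 3 KO (orange) mESC wells, with the mean and SD in black. The wells do not overlap between genotypes for *Dppa2*, *Dppa3*, *Dppa4*, *Dppa5a*, *Tdgf1*, *Gbx2*, *Rex2*, *Sall4* and *Lin28a*, and they overlap for *Utf1*.

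In the text that follows, a level with ± is the mean and SD of the 3 wells of a genotype. The comparison of KO with WT mESC asked whether loss of the *Peril* gene body went along with a change in these genes. Of the 10, *Gbx2* and *Dppa3* were higher and *Rex2*, *Dppa2*, *Dppa4*, *Lin28a* and *Tdgf1* lower in KO at an adjusted p under 0.05 (edgeR quasi-likelihood test, adjusted over 17459 genes). Over all tested genes 2.27% were called higher and 4.59% lower. Among genes of at least 10 TPM in WT mESC, a comparison chosen after seeing the data, 9.1% were called, and 9 of the 10 genes lie in that range. The median log2 fold change of the 10 genes was -0.25, against -0.03 over all tested genes. Calls fell from 7 of 10 to between 4 and 6 when 1 mESC library was left out, and to 4 without WT well 2, WT well 3 or KO well 2.

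*Dppa2* and *Dppa4* lie next to each other on the plus strand of chromosome 16 (mm10, *Dppa4* at chr16:48283733-48294237 and *Dppa2* at chr16:48303908-48319723), 9670 bp apart. *Dppa2* measured 45.0, 44.2 and 44.7 TPM in WT wells 1 to 3 and 35.1, 33.6 and 33.9 TPM in KO wells 1 to 3. All KO wells lay below all WT wells. The log2 fold change was -0.45 (SE 0.092, adjusted p = 0.00646, edgeR), and the call held without each well in turn. *Dppa4* measured 72.3, 74.2 and 70.7 TPM in WT and 59.5, 58.1 and 61.8 TPM in KO. The groups did not overlap, but its log2 fold change of -0.34 (SE 0.096) passed the threshold only narrowly (adjusted p = 0.0474, edgeR), and the adjusted p rose to between 0.0754 and 0.204 without any 1 of the 6 wells. The ratio of *Dppa2* to *Dppa4* TPM was 0.616 ± 0.019 in WT and 0.572 ± 0.022 in KO.

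*Dppa3*, at chr6:122626410-122630272, moved the other way. It measured 47.8, 42.1 and 44.3 TPM in WT wells and 65.5, 68.5 and 65.5 TPM in KO wells. Every KO well was above every WT well, with a log2 fold change of 0.51 (SE 0.104, adjusted p = 0.0126, edgeR). Its adjusted p was 0.0784 without WT well 2, 0.0653 without WT well 3 and 0.0615 without KO well 2. *Dppa5a*, at chr9:78367052-78368177, measured 5612, 5447 and 5288 TPM in WT and 5162, 5264 and 5233 TPM in KO. The KO wells lay just below the WT wells in TPM. The fit gave a log2 fold change of -0.13 with a 95% interval from -0.33 to 0.07, so no change was called (adjusted p = 0.482, edgeR). The family therefore held 2 lower genes, 1 higher gene and 1 gene without a call.

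*Khdc3* is a relative of *Dppa5a* in the KH domain family and part of the maternal complex of the oocyte. It was the 1 called gene of the 2 tested relatives, where 4.59% of all tested genes were lower. It measured 33.6 ± 1.6 TPM in WT and 22.04 ± 1.41 TPM in KO, with a log2 fold change of -0.71 (SE 0.121, adjusted p = 0.00265, edgeR). *Ooep* of the same complex was at -0.33 (SE 0.102, adjusted p = 0.0605, edgeR). Genes of the cleavage stage, which *Dppa2* and *Dppa4* are known to activate, were mostly silent: 2 of 18 in the tables passed the filter on low counts, the widely expressed *Eif1a* at 209 TPM in WT and *Zfp352* at 0.13 TPM, and neither was called. Of 18 tested germline genes that depend on promoter methylation, *Brdt* was lower and none higher, a share near the 4.59% of all tested genes that were lower, and the median log2 fold change was -0.33. *Brdt* was itself low, at 0.527 ± 0.271 TPM in WT and 0.257 ± 0.095 TPM in KO. Of 9 genes of the DNA methylation machinery, the de novo enzymes *Dnmt3a* and *Dnmt3b* and their cofactor *Dnmt3l* were lower. *Dnmt1* was at a log2 fold change of -0.02 (SE 0.055) and *Uhrf1* at -0.12 (SE 0.090), and neither was called. A link of these levels to *Dppa3* was not tested. None of the 9 was higher, and the share of all tested genes that were lower was again 4.59%. *Dnmt3l* fell from 195 ± 8.9 TPM to 77.4 ± 6.0 TPM, which is -1.40 on the log2 scale (SE 0.079, adjusted p = 2.96e-08, edgeR).

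*Tdgf1*, at chr9:110939603-110946158, measured 742, 740 and 726 TPM in WT wells and 585, 631 and 628 TPM in KO wells. All KO wells were lower, with a log2 fold change of -0.33 (SE 0.068, adjusted p = 0.0088, edgeR), and the call held without each well in turn. Of 18 tested genes of the Nodal pathway, in which *Tdgf1* acts, *Smad3* was higher, at 8.29 ± 0.60 TPM in WT and 11.8 ± 1.4 TPM in KO, and *Skil*, a repressor of SMAD signalling, was lower, at 16.02 ± 0.21 and 10.6 ± 0.4 TPM. These 2 calls in 18 genes are near the shares over all tested genes (2.27% higher and 4.59% lower). The ligand *Nodal* was at a log2 fold change of 0.07 (SE 0.104) and the inhibitor *Lefty2* at 0.20 (SE 0.078), and neither was called.

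*Lin28a*, at chr4:134003330-134018841, measured 177, 185 and 183 TPM in WT wells and 155, 147 and 150 TPM in KO wells. The groups did not overlap, and the log2 fold change was -0.34 (SE 0.085, adjusted p = 0.0233, edgeR). The call held without KO well 1 (adjusted p = 0.0249, edgeR) but not without any other well: the adjusted p was 0.0583 without WT well 1, 0.1 without WT well 2, 0.0941 without WT well 3, 0.111 without KO well 2 and 0.11 without KO well 3. DESeq2 with gene length offsets also ended it, at a log2 fold change of -0.32 (adjusted p = 0.781). Of 20 tested genes of the Lin28 and let-7 pathway, 4 were lower, against 4.59% of all tested genes, and none higher. *Hmga1*, a chromatin protein, measured 1242 ± 26 TPM in WT and 768 ± 17 TPM in KO, with a log2 fold change of -0.80 (SE 0.070, adjusted p = 2.92e-06, edgeR). *Igf2bp2*, which binds mRNA, was at -0.40 (SE 0.068) and the cell cycle gene *Ccnd2* at -0.57 (SE 0.132). *Lin28b*, the paralog of *Lin28a*, was much lower in level, at 5.43 ± 0.12 TPM in WT and 4.55 ± 0.03 TPM in KO, and was called lower as well, at -0.32 (SE 0.085, adjusted p = 0.0308, edgeR).

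*Sall4*, at chr2:168748332-168767943, measured 130, 131 and 133 TPM in WT wells and 126, 124 and 128 TPM in KO wells. The TPM values did not overlap, but the difference was small, at a log2 fold change of -0.17 with a 95% interval from -0.33 to -0.01, and it did not pass the adjustment (adjusted p = 0.196, edgeR). Of 14 tested genes of the Sall family and the NuRD complex, the subunits *Mta3* and *Rbbp7* were lower, at log2 fold changes of -0.33 (SE 0.060) and -0.22 (SE 0.052), and none was higher. Over all tested genes 4.59% were lower, and among genes of at least 10 TPM in WT mESC 9.1% were called in either direction. *Utf1*, at chr7:139943789-139945112, measured 151, 170 and 176 TPM in WT wells and 152, 162 and 165 TPM in KO wells. The groups overlapped, and the log2 fold change was -0.13 with a 95% interval from -0.28 to 0.03 (adjusted p = 0.333, edgeR). Of 8 tested genes of PRC2, a complex whose binding to bivalent genes *Utf1* is known to limit, *Aebp2*, *Phf19* and *Eed* were lower. None was higher, and the share of all tested genes that were lower is the same 4.59%. *Aebp2* measured 93.7 ± 2.3 TPM in WT and 74.5 ± 3.0 TPM in KO.

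**Figure D2:**
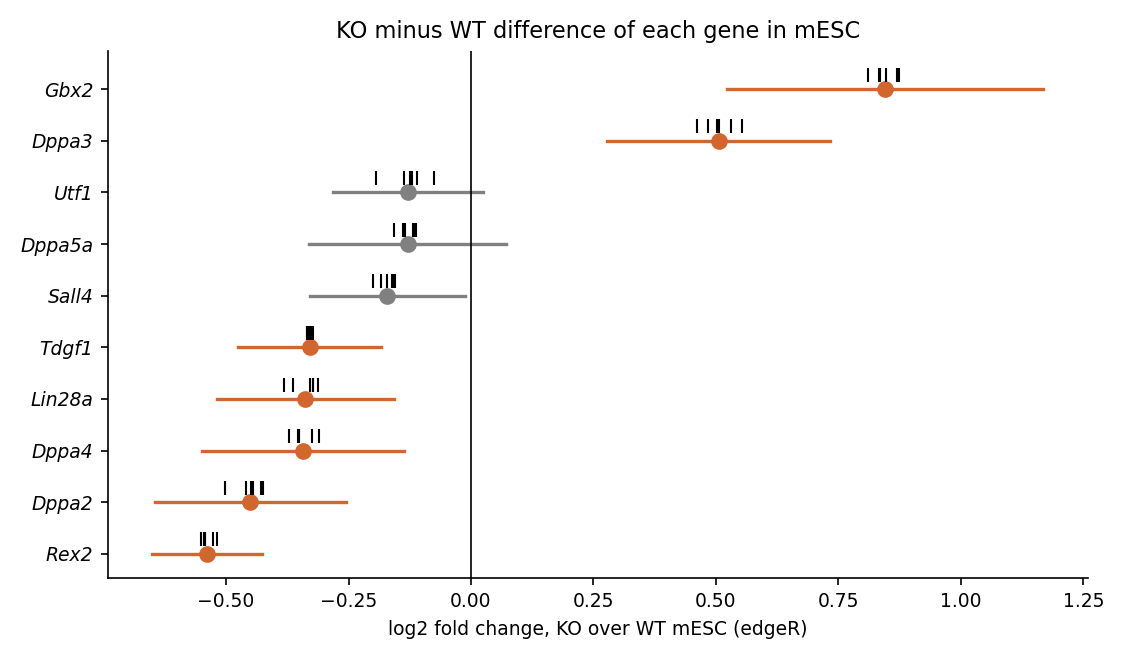
Log2 fold change of KO over WT mESC for each gene, with its 95% interval from the edgeR fit. Orange marks the 7 genes at an adjusted p under 0.05, grey the other 3, and the short black ticks above each line the 6 estimates with 1 mESC library left out, all of which keep the sign of the full fit.

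*Gbx2*, at chr1:89927956-89931179, was the lowest of the 10 genes in mESC and changed most. It measured 1.71, 1.71 and 1.78 TPM in WT wells and 3.29, 3.17 and 3.32 TPM in KO wells. The KO wells were all well above the WT wells, with a log2 fold change of 0.85 (SE 0.152, adjusted p = 0.00265, edgeR), which is 1.80-fold, and the call held without each well in turn. *Gbx2* is known as a target of LIF and STAT3. Of 10 tested genes of that pathway none was called in either direction, with a median log2 fold change of 0.12, and *Socs3*, a direct STAT3 target, was at 0.15 (SE 0.071, adjusted p = 0.222, edgeR). Of 21 naive pluripotency genes, *Tcl1* and *Klf5* were higher and *L1td1* and *Fbxo15* lower, where 2.27% of all tested genes were higher and 4.59% lower. Among genes of at least 10 TPM in WT mESC 9.1% were called in either direction. *Tcl1* measured 105 ± 0.3 TPM in WT and 137 ± 3.2 TPM in KO, and *L1td1* 380 ± 4.9 and 310 ± 16 TPM. The core factors *Pou5f1*, *Sox2* and *Nanog* had log2 fold changes of -0.10 (SE 0.081), -0.12 (SE 0.180) and -0.02 (SE 0.073) and were not called.

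*Rex2*, at chr4:147021850-147060794 on the plus strand, had the smallest adjusted p of the 10. It measured 133, 135 and 132 TPM in WT wells and 93.9, 95.3 and 99.8 TPM in KO wells. No KO well came near a WT well, and the log2 fold change was -0.54 (SE 0.053, adjusted p = 9.96e-06, edgeR). *Rex2* overlaps an antisense gene, 4933438K21Rik, and the libraries were not stranded, so reads of the pair cannot be told apart.

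*Rex2* lies in a cluster of KRAB zinc finger genes, and 15 protein-coding genes with Zfp names start within 1 Mb of it. In mESC KO, 11 of the 15 were lower, against 4.59% of all tested genes, and none higher. All 15 had a negative log2 fold change, from -0.64 (*Zfp981*) to -0.12 (*Zfp933*), with a median of -0.38. *Zfp600* measured 138 TPM in WT with a log2 fold change of -0.55 (SE 0.091, adjusted p = 0.00138, edgeR), and *Zfp534* measured 164 TPM with -0.44 (SE 0.043, adjusted p = 9.96e-06, edgeR). *Zfp987*, *Zfp993*, *Zfp984* and *Zfp933* were not called. *Zfp933* was also the gene at the lowest level in mESC, at 5.73 TPM in WT, and it was higher in GE/OB, at 11.9 TPM. The genes are near copies: all 15 had expected counts that were not whole in all 6 mESC wells, which shows that RSEM split reads between genes, so the change of any 1 gene is uncertain and their calls are not independent. The summed count of *Rex2* and the 15 genes does not depend on how reads were split between these genes. Reads split with genes outside the sum can still affect it, and their part was not tested. Added after seeing the data, this sum was 3682, 3668 and 3536 TMM-scaled CPM (counts scaled to library size) in WT wells and 2762, 2671 and 2688 CPM in KO wells. The sums did not overlap, and the ratio of the means was 0.746. With 3 against 3 wells an exact permutation test cannot go below p = 0.1, so none is given for the sum.

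**Figure D3:**
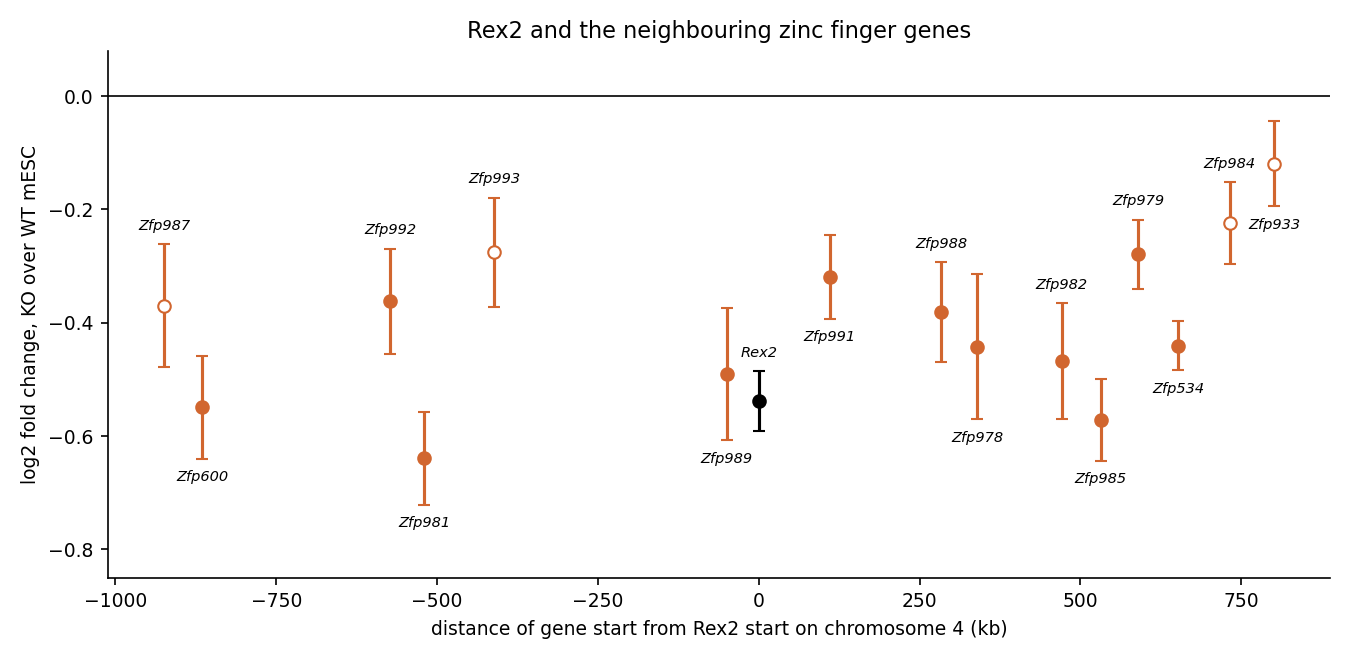
Log2 fold change of KO over WT mESC (vertical axis, with SE) for *Rex2* (black) and the 15 neighbouring zinc finger genes (orange), by distance of the gene start from the *Rex2* start in kb. Filled points passed an adjusted p of 0.05, and all 16 points lie below 0.

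The promoters of the cluster are shown because most of those at hand are near copies of the *Rex2* promoter. RefSeq promoter entries (GRCm38.p6, 250 bases before to 50 after a start) were at hand for *Rex2* and 11 of the 15 neighbours. In 9 of the 11, an alignment with the *Rex2* entry covered at least 200 columns, at 77.1 to 99.7% identity, and 7 of these 9 genes were called lower. The other two, *Zfp993* and *Zfp933*, did not align at that length and were not called, and all 4 neighbours with no entry at hand were called lower. Whether likeness to the *Rex2* promoter goes along with the change was not tested. The entries of *Zfp981* and *Zfp993* belong to RefSeq starts that lie far from the start of the gene in GENCODE. The longest run of letters common to *Rex2* and the 9 is in capitals in the stretches of 100 bases below, all upstream of the RefSeq start and written 5′ to 3′ on the gene's strand. They are *Rex2* (chr4:147021690-147021789, plus), its nearest match *Zfp600* (chr4:146156667-146156766, plus), *Zfp979* (chr4:147642575-147642674, minus), *Zfp985*, with a log2 fold change of -0.57 (chr4:147553116-147553215, plus), and *Zfp984*, the least alike and not called (chr4:147809868-147809967, minus).
Rex2: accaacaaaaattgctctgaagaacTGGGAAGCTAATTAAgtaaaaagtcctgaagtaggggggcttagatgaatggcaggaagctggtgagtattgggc
Zfp600: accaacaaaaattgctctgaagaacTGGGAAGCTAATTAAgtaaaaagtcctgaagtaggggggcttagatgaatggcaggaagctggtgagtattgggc
Zfp979: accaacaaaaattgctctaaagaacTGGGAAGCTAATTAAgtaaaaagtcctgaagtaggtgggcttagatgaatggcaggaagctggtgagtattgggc
Zfp985: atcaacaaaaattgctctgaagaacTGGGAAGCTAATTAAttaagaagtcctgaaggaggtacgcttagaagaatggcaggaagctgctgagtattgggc
Zfp984: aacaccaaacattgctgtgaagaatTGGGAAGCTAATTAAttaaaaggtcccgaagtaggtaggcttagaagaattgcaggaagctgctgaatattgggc
The capital run is 15 bases long and begins 135 bases before the *Rex2* start. On either strand it occurs in 12 of 32851 promoter entries (0.0365%), all on chromosome 4, namely *Rex2*, the 9 genes above, *Gm13212* and *Zfp980*. It was found by comparing these promoters with each other, so it is a description of what the copies share and not a site.

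Promoter entries were at hand for 5 of the 10 genes: *Gbx2*, *Lin28a*, *Rex2*, *Tdgf1* and *Utf1*. The GC box GGGCGG, searched on both strands, was in all 5, against 35.7% of all entries. The E-box CACGTG was in *Gbx2* alone (7.15% of all entries) and the Sox core ACAATG in *Lin28a* alone (12.6%). The octamer ATGCAAAT (1.74% of all entries), the letters GGCGGGAA (2.19%) and TATAAA (13.6%) were in none of these windows. The ratio of observed to expected CpG was 0.861 in *Gbx2*, 0.615 in *Utf1*, 0.545 in *Tdgf1*, 0.385 in *Rex2* and 0.351 in *Lin28a*, against a median of 0.384 over all entries.

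In the E14.5 tissues the 10 genes were low or at 0, and the exceptions were *Gbx2*, *Sall4* and *Dppa5a* in GE/OB. All 10 were higher in WT mESC than in WT kidney, where 40.2% of all tested genes were called higher in mESC. 9 of 10, all but *Gbx2*, were higher than in WT GE/OB, where 41.3% of genes were. The genes were picked as markers of pluripotent cells, and those with hardly any tissue counts passed the count filter through mESC. For these a call higher in mESC was set in advance, so the counts of calls only describe the levels. Because bulk tissue was measured, fewer cells of a type and less RNA per cell cannot be told apart. Counts were summed over both genotypes of a tissue, and intervals cover counting error only. *Tdgf1* had 2 counts in all 6 kidneys together, against 854 CPM in WT mESC, a ratio of 81902 (95% exact interval 22672 to 676304). *Tdgf1* had 0 counts in the 4 GE/OB libraries, which with a limit of 3 counts over the group makes WT mESC at least 25329-fold higher. *Utf1*, *Dppa3* and *Dppa4* were also at 0 in all 4 GE/OB libraries, and WT mESC was at least 3439-fold, 567-fold and 1906-fold higher. In the kidneys *Utf1* had 3 counts in all, *Dppa3* 1 and *Dppa4* 4. *Dppa2* had 7 counts over the 6 kidneys and 4 over the 4 GE/OB libraries.

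*Rex2* and *Lin28a* were a little above these. *Rex2* had 10.1 to 24.2 expected counts per kidney and 0 to 8.54 per GE/OB library, which placed WT mESC 779-fold (625 to 971) above kidney and 2405-fold (1357 to 4360) above GE/OB. *Lin28a* had 2 to 19 counts per kidney and 7 to 10 per GE/OB library, which placed WT mESC 1470-fold (1121 to 1969) and 1043-fold (746 to 1506) above them. Both were thus read in most libraries at well below 1 TPM. The *Rex2* counts were not whole in any kidney, so RSEM split reads between *Rex2* and other genes there too. *Rex2* and its 15 neighbours summed to 94.5 to 108 TPM in WT and 98.1 to 118 TPM in KO kidneys. In GE/OB they summed to 39.6 to 40.5 TPM in WT and 37.8 to 46.2 TPM in KO. The part of reads from the neighbours in the *Rex2* levels of the tissues was not tested.

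**Figure D4:**
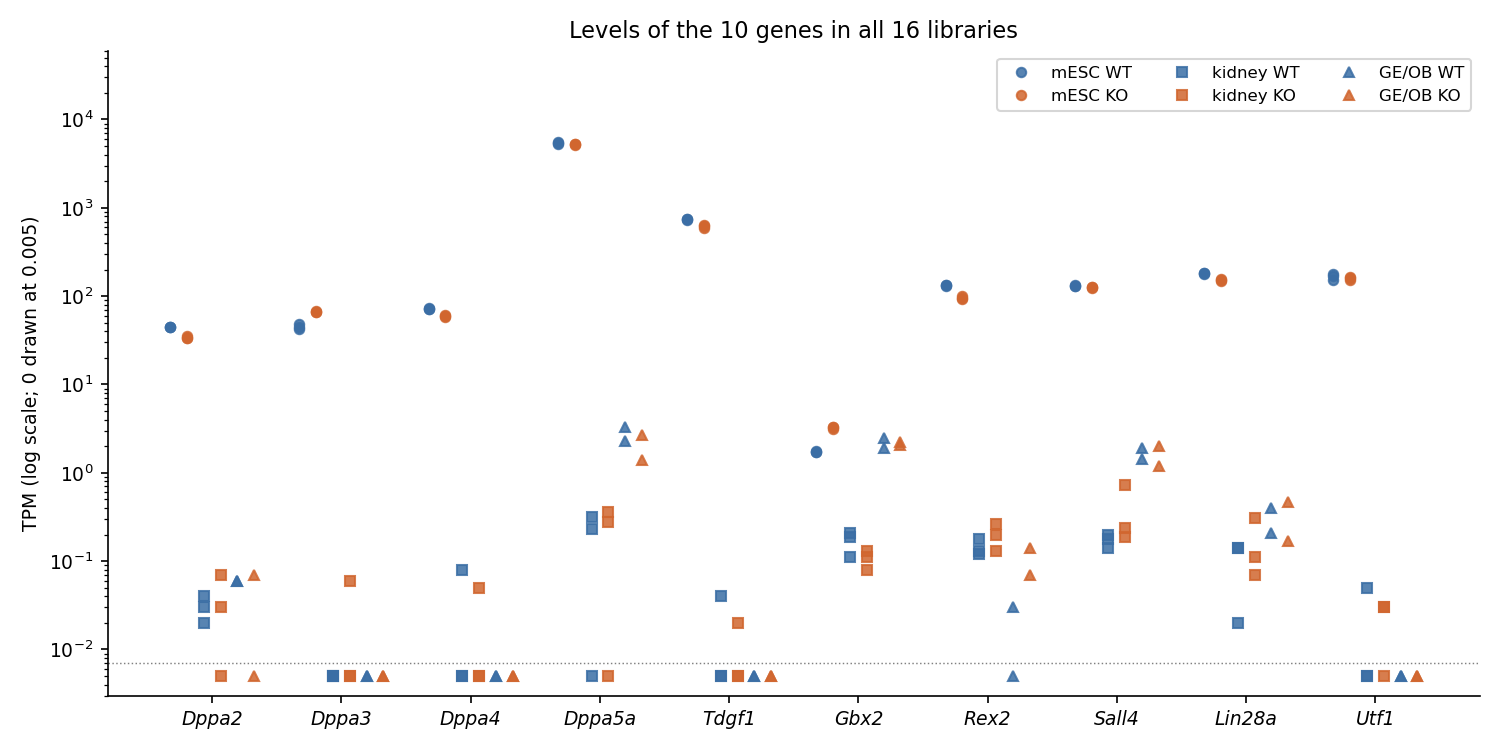
TPM of the 10 genes in all 16 libraries on a log axis, with circles for mESC, squares for kidney, triangles for GE/OB, blue for WT and orange for KO. Values of 0 are drawn at 0.005, under the dotted line, and *Gbx2* is the gene whose GE/OB points lie level with mESC.

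*Dppa5a* had 10, 12.9, 18 and 6 expected counts in the GE/OB libraries (WT 1, WT 3, KO 2 and KO 7), or 2.29, 3.28, 2.65 and 1.40 TPM. It had 0, 2 and 2 counts in the WT kidneys and 0, 5 and 4 in the KO kidneys, at most 0.36 TPM. The GE/OB levels were above every kidney, and WT kidney against WT GE/OB gave a log2 fold change of -3.45 (SE 0.596, adjusted p = 5.59e-05, edgeR). This comparison called 78.4% of all tested genes. In the proportions of WT mESC, the 46.9 counts of *Dppa5a* in GE/OB would correspond to 25.8 of *Tdgf1*, 3.50 of *Utf1*, 1.94 of *Dppa4* and 0.577 of *Dppa3*, which were all at 0. The same proportions would give 12.03 of *Lin28a*, 11.5 of *Sall4*, 10.2 of *Rex2*, 1.59 of *Dppa2* and 0.143 of *Gbx2*, where 34, 269, 12.6, 4 and 401 were counted. Of 8 further stem cell markers, *Pou5f1*, *Zfp42* and *Fgf4* had 0 counts in all 4 GE/OB libraries and *L1td1* at most 1, while *Esrrb* had 2 to 13 counts, *Nanog* 2.02 to 4.09, *Nr0b1* 1 to 4 and *Tfcp2l1* 19 to 45. The part of stem cells in the *Dppa5a* counts was not tested.

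*Sall4* had 47.1 and 51 expected counts in the WT and 85 and 86 in the KO GE/OB libraries, or 1.43, 1.89, 1.21 and 1.99 TPM. It had 6 to 30 counts per kidney. In TPM the kidneys lay between 0.14 and 0.24, except for KO kidney 7 at 0.72 TPM from 18 counts, where the effective length that RSEM estimated was 1475 bases against 2288 to 4645 in the others. WT kidney against WT GE/OB gave a log2 fold change of -2.41 (SE 0.275, adjusted p = 5.08e-07, edgeR). *Rex2* was the gene with the opposite order, higher in kidney. This order rested on 1.29 and 0 counts in the WT GE/OB libraries and on reads that RSEM split within the cluster. *Dppa5a*, *Sall4*, *Rex2* and *Gbx2* were the 4 of 10 genes called between the tissues.

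*Gbx2* was the 1 gene whose level in a tissue was near that of stem cells. It measured 2.45 and 1.89 TPM in WT GE/OB and 2.07 and 2.23 TPM in KO GE/OB, from 71 to 137 counts. WT mESC wells, at 1.71 to 1.78 TPM, lay below all of them and KO wells above all of them. The fit gave a log2 fold change of 0.35 for WT mESC over WT GE/OB, with a 95% interval from -0.04 to 0.73 (adjusted p = 0.0844, edgeR), so the sign of this difference was opposite on the 2 scales and neither order can be relied on. Without GE/OB WT sample 1 it was 0.55 (adjusted p = 0.0452, edgeR). In kidney *Gbx2* measured 0.21, 0.11 and 0.19 TPM in WT and 0.13, 0.11 and 0.08 TPM in KO, from 9 to 22.7 counts.

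None of the 10 genes was called between KO and WT kidney or between KO and WT GE/OB (edgeR), where 0.223% and 0.063% of all tested genes were called. At an unadjusted p under 0.05 there was 1 of 10 in each, *Gbx2* in kidney and *Rex2* in GE/OB, against 7.60% and 3.01% of all tested genes, and DESeq2 also called none. *Gbx2* in kidney had a log2 fold change of -0.76 with a 95% interval from -1.36 to -0.17 (adjusted p = 0.516, edgeR). The WT and KO kidneys overlapped, with KO kidney 7 at 0.13 TPM above WT kidney 3 at 0.11 TPM. *Gbx2* in GE/OB was at -0.04 with an interval from -0.47 to 0.38, and *Sall4* in GE/OB at 0.35 with an interval from -0.09 to 0.79. For the genes with a few counts the depth could not show a difference.

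The KO effect in mESC was then compared with that in each tissue, in the same fit. *Gbx2* was the 1 gene of 10 whose effect differed between mESC and kidney, by a log2 difference of 1.61 (SE 0.320, adjusted p = 0.0127, edgeR), where 2.24% of all tested genes were called. The adjusted p was 0.0701 without kidney WT 1 and 0.0519 without kidney KO 10. Between mESC and GE/OB none of the 10 was called and 1.08% of all tested genes were (edgeR). *Dppa3*, *Dppa4*, *Tdgf1* and *Utf1* were at 0 in every GE/OB library, so for them there was no GE/OB effect to compare and no call was possible. At an unadjusted p under 0.05 there were 3 of 10, against 10.6% of all tested genes. *Gbx2* was at a difference of 0.89 (SE 0.252, adjusted p = 0.127, edgeR), and DESeq2 called it (adjusted p = 0.0318). Without GE/OB KO 7, *Rex2* was called (adjusted p = 0.0392, edgeR). In the full fit the changes seen in mESC for the other genes are therefore not shown to differ from those in the tissues. Most of these genes had too few counts in the tissues for such a difference to show.

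**Figure D5:**
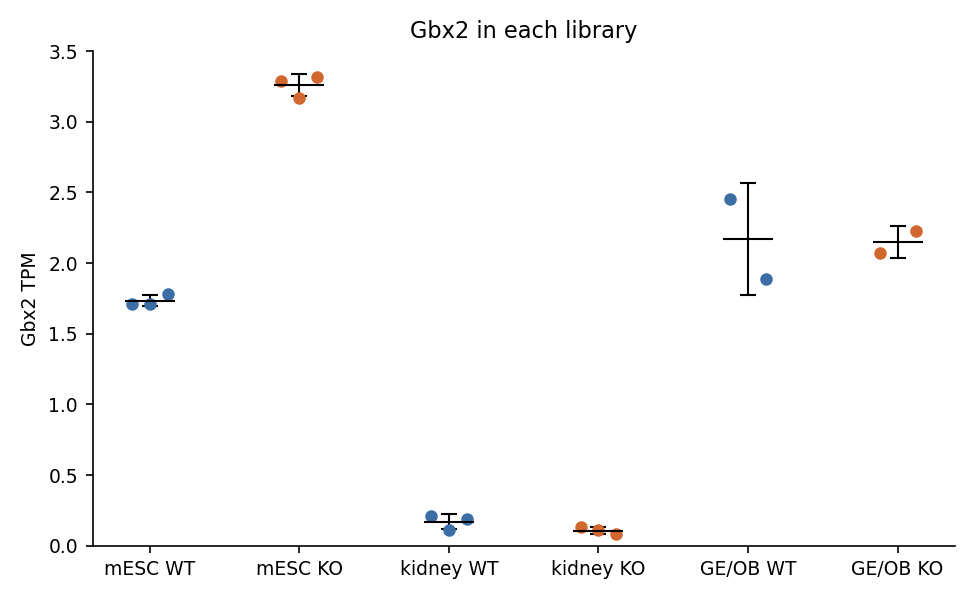
*Gbx2* TPM (axis from 0) in each library of the 6 groups, WT in blue and KO in orange, with mean and SD in black. The 3 KO mESC wells lie between 3.17 and 3.32 TPM, above all other libraries, and the 6 kidneys lie at 0.21 TPM or below.

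The genes with the most similar pattern were ranked by Pearson correlation of log2(TPM + 1). Over the 16 libraries the difference between mESC and the tissues dominates this measure, so many genes are alike: between 237 and 461 genes had r above 0.99 with each of the 10 genes except *Gbx2*, which had none. The 3 nearest to *Utf1* were *Rbmxl2*, *Pou5f1* and *Fgf4*, and those to *Tdgf1* were *Gm17067*, *Tex19.1* and *Morc1*. *Gtsf1l* and *Morc1* were nearest to *Dppa4*, followed by *Tdgf1*. *Dppa2* was most like C430002E04Rik, *Gtsf1l* and *Naa11*, *Dppa3* most like *Pgc*, *Fetub* and *Krt42*, and *Dppa5a* most like *Nlrp4f*, *Dusp27* and *Lefty2*. *Rex2* was most like *Zfp534* of its own cluster, *Gm13242* and *Pla2g1b*. *Sall4* was most like A230004M16Rik, *Lefty2* and *Phf17*, and *Lin28a* most like *Zfp936*, *Gm17067* and *Dppa4*. For *Gbx2* the nearest were 3110002H16Rik (r = 0.986), *Ccdc93* (r = 0.983) and *Fst* (r = 0.983), all over 16 libraries. Within the 6 mESC wells the genotype sets the measure in the same way. There the nearest to *Rex2* were *Dctd*, *Gm8909* and *Gnas*, to *Gbx2* *Pou4f2* and BC064078, to *Dppa2* *Hspa8*, *Tnfrsf19* and *Mthfd1*, and to *Dppa3* *Ash1l*, *Garem* and *Nckap1l*. Those of *Dppa4* were *Gtsf1l*, *Dync1li1* and *Nfatc2*, those of *Tdgf1* *Ripk4*, *Tpm2* and E130309D14Rik, and those of *Lin28a* *Samm50*, *Aars* and *Hps6*.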

How the data were processed

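RNA-seq was made by the authors from poly(A) RNA with an unstranded kit. Reads were aligned to mm10 and quantified with RSEM, and the deposited tables give TPM, expected counts and an effective length in bases for each of 26759 genes. Expected counts were rounded and fitted with edgeR 4.0.16 in R 4.3.3 (TMM factors, filterByExpr by group, 1 coefficient per tissue and genotype, quasi-likelihood test) over all 16 libraries. Benjamini-Hochberg adjustment covered all 17459 tested genes, with calls at an adjusted p under 0.05. Intervals for summed counts are exact at 95%, and 0 counts were taken to allow 3. Totals were 17544707 to 45924887 counts. The fit was tested on simulated data. Alternatives were DESeq2 1.42.0, other factors, filters and samples, sex as a covariate, a replicate block and leaving out libraries. Positions are from GENCODE vM21 and promoters from RefSeq, aligned with Biopython 1.88. Named genes are the 10, up to 3 called genes of each list by smallest p, defining markers, the 3 nearest genes by correlation and the *Rex2* cluster. *Lin28b*, *Nodal*, *Lefty2*, *Socs3*, *Ooep*, *Eif1a*, *Zfp352*, *Dnmt1*, *Uhrf1* and the core factors were chosen after their values were seen. A gene that this rule takes is withheld and not reported here. The genes and lists were chosen with earlier results of these data known. The MPRA table, Hi-C and whole brain libraries were not used here.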

Additional observations from a re-analysis of the deposited data

Results flagged for a closer look

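*Gbx2* stood out because its KO effect differed between mESC and kidney in a test of the difference itself. It was 0.85 (SE 0.152) in mESC and -0.76 (SE 0.280) in kidney on the log2 scale, a difference of 1.61 (adjusted p = 0.0127, edgeR), with all 3 KO wells above all 3 WT wells in mESC and 9 to 22.7 counts per library in kidney. The kidney groups were unbalanced by sex: male kidneys measured 0.21 and 0.19 TPM in WT and 0.13 in KO, female kidneys 0.11 in WT and 0.11 and 0.08 in KO. Over the 7 alternatives that kept every library, sex as a covariate among them, the difference was 1.30 to 1.64 and was called in all. The kidney effect alone was -0.78 to -0.46 and was called in none. No group held the 4 samples needed to look for single outlying samples.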

How the results depend on the processing

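Of the 10 genes, *Dppa2*, *Dppa3*, *Tdgf1*, *Gbx2* and *Rex2* were called in mESC under all 8 alternatives that kept every mESC library, *Lin28a* under 7 (not with DESeq2 and gene length offsets, adjusted p = 0.781), *Dppa4* under 6 (not with RLE factors, 0.0519, nor the filter at a sum of counts above 1, 0.0508), *Sall4* under 3 (DESeq2, 0.0348, the mESC libraries alone, 0.0106, and the replicate block) and *Dppa5a* and *Utf1* under none. No gene changed direction in mESC. The mESC libraries alone called 3561 of 14106 genes, DESeq2 1644 and the main design 1198. Replicate numbers paired the wells weakly at most, with correlations of 0.15, 0.022 and 0.086 for equal numbers and -0.118 to 0.061 for unequal ones. The replicate block called 4027 genes and gave *Sall4* an adjusted p of 0.00789 (edgeR). Leaving out 1 library gave 4 to 6 called genes of 10 in mESC, 0 to 1 for the difference between mESC and kidney and 0 to 1 for that between mESC and GE/OB. The latter was 2 with only the tissues compared, 1 with DESeq2 and 1 with DESeq2 and length offsets. *Gbx2* in WT mESC over WT GE/OB was called with only the tissues compared (0.32) and with the mean of WT and KO (0.79). *Sall4* in GE/OB reversed to -0.10 with DESeq2 and length offsets. With TMM-scaled CPM in place of TPM the log2 ratio of KO to WT means moved to -0.45 for *Dppa2*, -0.34 for *Dppa4*, -0.13 for *Dppa5a*, -0.33 for *Tdgf1*, 0.84 for *Gbx2*, -0.54 for *Rex2*, -0.17 for *Sall4* and -0.34 for *Lin28a*. The 2 scales differed by a median of 0.07 over genes and kept the direction of all 10. A pseudocount of 0.1 kept 6 of the 30 nearest genes. Causes of these changes were not tested. Depth limits the tissues, where most of the 10 genes had fewer than 30 counts per library.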
